A study of Homo sapiens with 5 samples.

Results

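The integrated stress response genes examined here were 9 of the 20162 protein-coding genes annotated on hg19, namely EIF2AK3, ATF4, ATF5, CEBPB, DDIT3, TRIB3, ASNS, CHAC1 and PPP1R15A. They were listed by their place in the pathway and not by a measured value. For each gene, every ChIP-seq peak that touched the gene body or the 50 kb on either side of it was taken. These 9 windows held 57 of the 29781 peaks of the 4 libraries: 3 of Nrf2 in control cells, 10 of Nrf2 with inorganic arsenic (iAs), 7 of HIF1α in control cells and 37 of HIF1α with iAs.

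The cells were BEAS-2B, an immortalized human bronchial epithelial line, starved of serum overnight and then kept for 6 h either without arsenic (control) or with 1 μM iAs. Chromatin was immunoprecipitated with an antibody against Nrf2, the transcription factor that Keap1 holds in check, or against HIF1α, the oxygen-regulated subunit of HIF1, and sequenced, with 1 library for each antibody and condition. Serum starvation was common to both conditions, the starting material was a single cell line, and no replicate exists, so no difference between control and iAs was tested and no value carries an error. A peak is an interval with a start and an end but no height, its read depth is unknown, and it was described by presence, position and width. All positions are on hg19, the distance of a peak is from the start site of the canonical transcript to the peak centre, and negative distances are upstream. For counts within 1 kb of a start site or within 10 or 50 kb of a gene, a peak was counted when any of its bases touched that span.

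The integrated stress response is the shared program by which cells answer unfolded proteins, amino acid shortage, heme shortage and oxidants. Its kinases phosphorylate the initiation factor eIF2 on its alpha subunit, which lowers general translation while the mRNA of the transcription factor ATF4 is translated more. ATF4 pairs with C/EBP and other leucine zipper proteins on C/EBP-ATF composite elements and switches on genes for amino acid supply, feedback and, when stress lasts, cell death. Arsenite is a classical inducer of this response. Nrf2 binds antioxidant response elements (ARE) with small Maf proteins, and HIF1α binds hypoxia response elements with ARNT.

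The sequences that follow are the reference DNA under the peaks on which the description turns. Matches were searched on both strands. The letters were TGACNNNGC for the ARE core, TGACTCA or TGAGTCA for AP-1, ACGTG or GCGTG for HIF, and TGATGNAA for the C/EBP-ATF element. The word TGACTCAGC, or GCTGAGTCA on the other strand, is at once an ARE core and an AP-1 match. The first set is shown because it lies under the Nrf2 peaks of TRIB3, CEBPB, PPP1R15A and EIF2AK3, and its capitals mark ARE core and AP-1 matches only, with any HIF match left in lower case.
TRIB3, at -15.6 kb, chr20:345695-345815, plus strand: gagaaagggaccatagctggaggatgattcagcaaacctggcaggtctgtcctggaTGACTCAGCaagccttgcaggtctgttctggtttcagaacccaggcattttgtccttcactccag
TRIB3, at -8.59 kb, chr20:352752-352872, plus strand: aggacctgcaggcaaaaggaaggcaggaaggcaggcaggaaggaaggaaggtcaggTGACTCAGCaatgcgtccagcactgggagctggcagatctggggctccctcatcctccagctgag
TRIB3, at 64.2 kb, chr20:425513-425633, plus strand: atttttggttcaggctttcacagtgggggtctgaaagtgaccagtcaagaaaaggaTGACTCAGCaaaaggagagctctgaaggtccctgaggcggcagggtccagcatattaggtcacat
CEBPB, at -24.5 kb, chr20:48782726-48782956, plus strand: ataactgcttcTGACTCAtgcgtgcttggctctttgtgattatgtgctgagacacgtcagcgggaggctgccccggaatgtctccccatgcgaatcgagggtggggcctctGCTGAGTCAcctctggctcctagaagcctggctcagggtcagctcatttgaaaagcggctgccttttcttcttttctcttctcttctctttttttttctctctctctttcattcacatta
PPP1R15A, exon 2, chr19:49377824-49377944, plus strand: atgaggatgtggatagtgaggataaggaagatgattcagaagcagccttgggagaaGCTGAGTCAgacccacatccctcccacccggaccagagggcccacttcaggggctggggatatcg
PPP1R15A, intron 2, chr19:49378683-49378711, plus strand: tcttccttcagTGAGTCAgatagatagag
EIF2AK3, at -31.1 kb, chr2:88957997-88958117, minus strand: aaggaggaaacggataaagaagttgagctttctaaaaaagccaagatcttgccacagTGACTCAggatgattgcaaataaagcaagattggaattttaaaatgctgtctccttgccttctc

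At TRIB3 and in exon 2 of PPP1R15A the marked word was of the double kind, ARE core and AP-1 together. The CEBPB stretch had 2 marked words, an AP-1 match alone and then one of the double kind. In intron 2 of PPP1R15A and upstream of EIF2AK3 it was an AP-1 match alone. The second set shows C/EBP-ATF matches in capitals within 29 bases, under the HIF1α iAs peaks at the starts of TRIB3 and CHAC1, under a Nrf2 peak of TRIB3, and in the promoter of ASNS, which had no peak.
TRIB3, exon 1, chr20:361526-361554, plus strand: tagctccggtTTGCATCAcccggaccggg
TRIB3, exon 1, chr20:361559-361587, plus strand: tagctccggtTTGCATCAcccggaccggg
TRIB3, exon 1, chr20:361592-361620, plus strand: tagctccggtTTGCATCAcccggaccggg
CHAC1, at -205 bp, chr15:41245450-41245478, plus strand: tcccctgccgTTGCATCActcctgccagg
TRIB3, at -8.78 kb, chr20:352614-352642, plus strand: caaggttttcTGATGCAActggctgagtg
ASNS, at -65 bp, chr7:97501771-97501799, minus strand: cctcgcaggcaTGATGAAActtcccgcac

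The 3 copies in exon 1 of TRIB3 had the same 29 bases. The third set shows, in capitals, a HIF match under the start-site HIF1α peaks of 5 members, and the AP-1 match under the control HIF1α peak in EIF2AK3 that had no counterpart with iAs.
ATF4, at -284 bp, chr22:39916269-39916297, plus strand: accggaagcgagGCGTGtctgggagatca
ATF5, exon 1, chr19:50432571-50432599, plus strand: ctccgcgctcacCACGCctgcgctctccg
EIF2AK3, exon 1, chr2:88926866-88926894, minus strand: tagggtccctagCACGTccttgccttctt
CHAC1, at -469 bp, chr15:41245186-41245214, plus strand: cgctccttctggACGTGccctggactcga
CEBPB, exon 1, chr20:48808260-48808288, plus strand: cagcccgcccggCACGCcgagccccgctg
EIF2AK3, intron 2, chr2:88899796-88899916, minus strand: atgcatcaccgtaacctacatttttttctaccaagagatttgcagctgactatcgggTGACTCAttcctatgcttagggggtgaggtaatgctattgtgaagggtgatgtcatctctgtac

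In control cells, HIF1α lay within 1 kb of a member's start site at EIF2AK3 alone, where 16.7% of all protein-coding genes had such a peak. With iAs it lay there at 7 of the 9 members, all but ASNS and PPP1R15A, against 42.6% of all genes. Nrf2 had no peak within 1 kb of any member's start site in either condition, against 2.32% of genes in control cells and 5.17% with iAs. Its peaks were found at distance from TRIB3 and CEBPB in both conditions, and with iAs also inside PPP1R15A and upstream of EIF2AK3. PPP1R15A was the only member with Nrf2 peaks and no HIF1α peak, and ASNS had no peak of either factor.

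**Figure D1:**
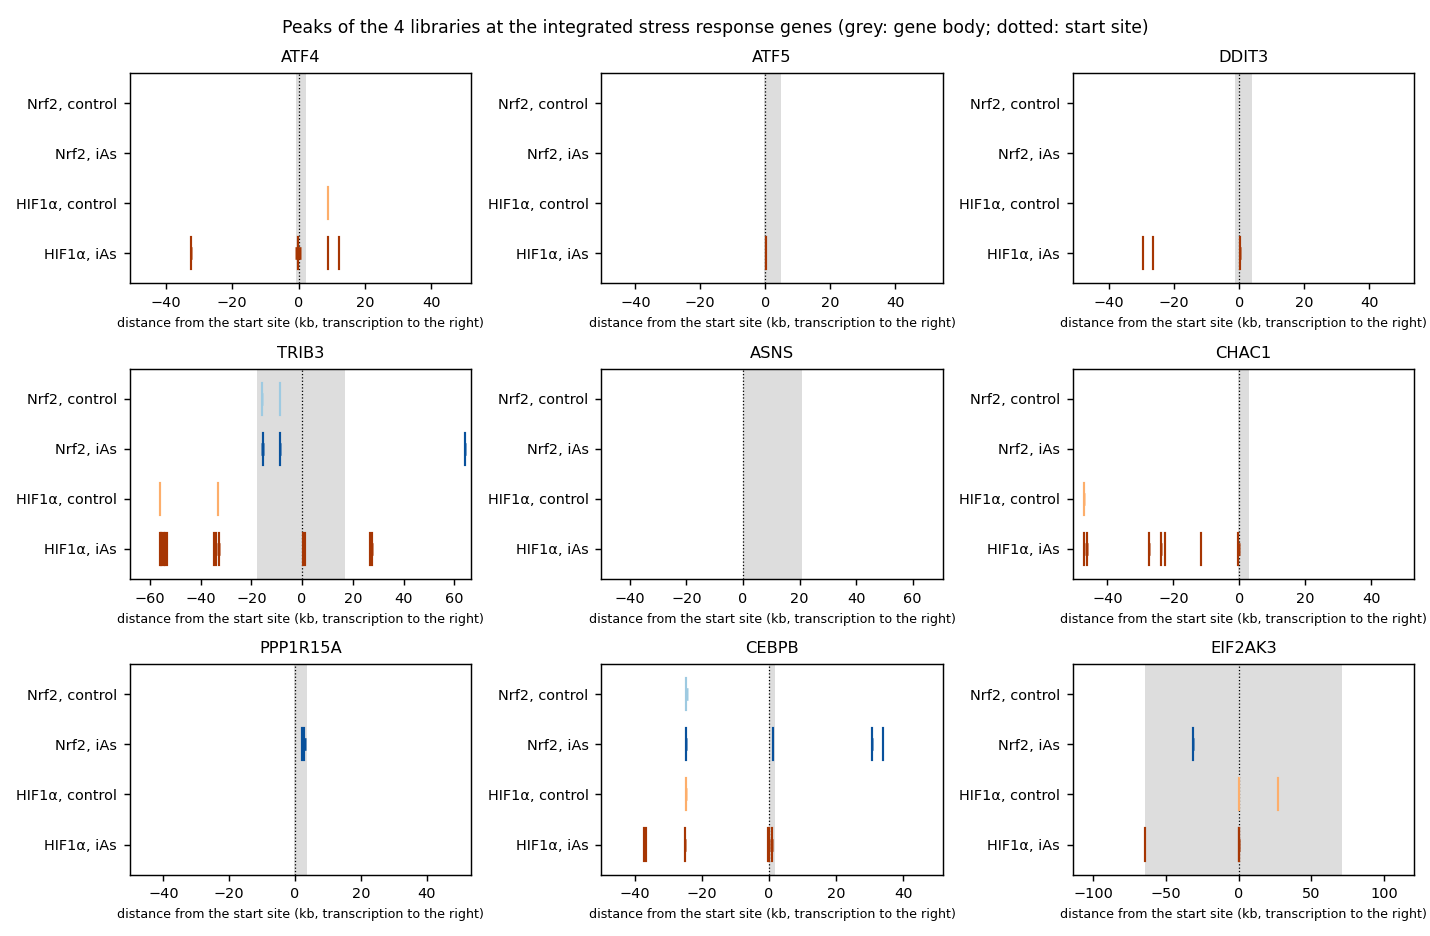
Position of every peak of the 4 libraries around the 9 genes, as distance from the start site in kb with transcription to the right. Rows are libraries, vertical ticks are peaks, the grey band is the gene body over all annotated transcripts, and the dotted line is the start site. HIF1α iAs ticks sit at the dotted line in 7 panels, whereas the ASNS panel is empty and PPP1R15A has Nrf2 iAs ticks only.

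EIF2AK3 (chr2:88856259-88991036, minus strand) encodes PERK, the eIF2 kinase that senses unfolded proteins in the endoplasmic reticulum. HIF1α had a peak of 221 bp at 50 bp from the start site in control cells and one of 283 bp at 20 bp with iAs, and these overlapped over the whole control peak. A further HIF1α iAs peak of 317 bp lay at 463 bp, in the coding part of exon 1, and overlapped no control peak. EIF2AK3 was thus the one member occupied by HIF1α at its start in both conditions. A control HIF1α peak of 266 bp in intron 2, at 27.1 kb, had no overlapping peak with iAs and was the only one of the 7 control HIF1α peaks at the 9 loci of which this was so. Over the whole list, 46.3% of control HIF1α peaks had no overlapping iAs peak. Nrf2 had 1 peak, with iAs, of 203 bp at -31.1 kb, within the span of a longer EIF2AK3 transcript. The nearest Nrf2 peak of control cells was 3190 kb away. A last HIF1α iAs peak, of 471 bp at -64.4 kb, lay 230 bp from the start of the neighbouring RPIA and 427 bp from the start of the longer EIF2AK3 transcript.

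ATF4 (chr22:39915700-39918688, plus strand) is the transcription factor at the centre of the response. Its start site was covered with iAs by a HIF1α peak of 1610 bp, chr22:39915561-39917170, centred at -202 bp. This was the widest of the 57 peaks and ranked 36 of 12826 by width in its library, in the top 0.281%. No control HIF1α peak overlapped it. The control peak nearest to ATF4, of 215 bp at 8.79 kb, lay past the gene and closer to RPS19BP1, and a peak of the same 215 bp stood at 8.76 kb with iAs. The other HIF1α iAs peaks were 641 bp at -32.4 kb, nearest to MIEF1, and 188 bp at 12.1 kb, centred 43 bp from the start of RPS19BP1. Nrf2 had no peak in the window, and its nearest ones, 189 bp wide without iAs and 315 bp with it, were at 54.4 kb, nearest to CACNA1I and just past the window's edge.

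ATF5 (chr19:50431959-50437192, plus strand), a leucine zipper factor whose translation is controlled much like that of ATF4, had a single peak. It was a HIF1α iAs peak of 336 bp at 121 bp, over the noncoding part of exon 1. The start of NUP62, a nuclear pore gene, lay 299 bp from that of ATF5 and within 1 kb of the same peak, so the peak cannot be assigned to one of the pair. The nearest control HIF1α peak was a wide one of 1424 bp at -52.2 kb, just outside the window and 326 bp from the start of AKT1S1. Nrf2 peaks were 582 kb away with iAs and 876 kb away in control cells.

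DDIT3 (chr12:57910371-57915520, minus strand) encodes CHOP, the factor tied to cell death when stress lasts. HIF1α with iAs had a peak of 225 bp at 396 bp, in intron 1, and no control peak lay nearer than 89.4 kb. The annotated gene ENSG00000285133 overlaps DDIT3 and starts 34 bp from its start site, so the peak cannot be told apart between them. The other HIF1α iAs peaks of the window, 231 bp at -26.5 kb and 232 bp at -29.6 kb, were centred 137 bp from the start of DCTN2 and 70 bp from that of KIF5A. The nearest Nrf2 peaks, 457 bp wide without iAs and 612 bp with it, were both at -112 kb, near B4GALNT1. A HIF1α peak was thus called within 1 kb of the DDIT3 start with iAs only, and its centre was nearer to the start of ENSG00000285133 (362 bp). The peaks of the DDIT3 window were among the narrow ones, below the library median of 340 bp.

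CEBPB (chr20:48807367-48809205, plus strand) is a C/EBP factor that can pair with ATF4, and its gene has 1 exon. A region upstream had a peak in all 4 libraries. Nrf2 covered 687 bp there in control cells, centred at -24.6 kb, and 738 bp with iAs, centred at -24.7 kb. HIF1α covered 545 bp in control cells, at -24.8 kb, and 798 bp with iAs, at -25.0 kb. All 4 were wider than the median of their own list, and no other region at the 9 loci had both factors in both conditions. The region is nearer to the start of PEDS1 than to CEBPB. At the gene itself HIF1α had 3 peaks with iAs and none in control cells, of 210 bp at -354 bp, 320 bp at 127 bp and 443 bp at 995 bp. The last of these, in the coding part of the exon, contained a Nrf2 iAs peak of 181 bp at 1.10 kb, the smallest width in its list. Nrf2 with iAs had further peaks of 217 bp at 30.8 kb and 203 bp at 34.0 kb, with no control counterpart. The remaining HIF1α iAs peaks, 270 bp at -37.3 kb and 327 bp at -36.7 kb, lay at the starts of PEDS1 and PEDS1-UBE2V1.

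TRIB3 (chr20:343479-378203, plus strand) encodes a pseudokinase that ATF4 induces and that restrains ATF4 in return. Upstream of its start Nrf2 had a pair of peaks in both conditions, within the span of a longer transcript. The farther one measured 258 bp without iAs, at -15.7 kb, and 1060 bp with it, at -15.5 kb. The nearer one measured 278 bp without iAs, at -8.65 kb, and 594 bp with it, at -8.58 kb. Both iAs peaks contained the whole control peak, and they were 4.11 and 2.14 times as wide. Nrf2 with iAs had 1 more peak, of 589 bp at 64.3 kb, nearest to TBC1D20. HIF1α had no control peak at the TRIB3 start and 2 with iAs, 731 bp at 355 bp over exon 1 and 206 bp at 1.06 kb in intron 1. The wider one covered the 3 C/EBP-ATF matches of exon 1. The TRIB3 window held 13 of the 37 HIF1α iAs peaks, of which 6 lay within 2 kb of the start of SOX12, 3 near NRSN2 and 2 near RBCK1. The control HIF1α peaks of the window, 453 bp at -56.2 kb and 263 bp at -33.2 kb, were at SOX12 and NRSN2 and had iAs counterparts of 493 and 694 bp.

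CHAC1 (chr15:41245160-41248710, plus strand) encodes an enzyme that breaks down glutathione and is induced through ATF4. A HIF1α iAs peak of 757 bp, chr15:41244984-41245740, was centred at -307 bp and covered the start site, and it ranked in the top 9.25% of its list by width. No control peak overlapped it. A second HIF1α iAs peak without control counterpart, 409 bp at -11.7 kb, was also nearer to the CHAC1 start than to any other. Farther upstream, 3 iAs peaks of 317, 575 and 255 bp lay nearest to DLL4, between -27.3 and -22.6 kb. At -47.2 kb a control HIF1α peak of 453 bp faced a narrower one of 289 bp with iAs, at -47.0 kb, and an iAs peak of 201 bp stood at -46.1 kb, all nearest to VPS18. The nearest Nrf2 peaks were at -160 kb with iAs and 163 kb in control cells.

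ASNS (chr7:97480989-97501854, minus strand) encodes asparagine synthetase, a textbook ATF4 target. It had no peak of any library within 50 kb. The nearest were HIF1α peaks near OCM2, 219 bp at -100 kb in control cells and 501 bp at -99.9 kb with iAs. Nrf2 was nearest at -260 kb with iAs and -1320 kb in control cells. The ASNS window held 1 protein-coding start site, its own, against 2 to 7 in the windows of the other members, and its promoter carried a C/EBP-ATF match at -65 bp.

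PPP1R15A (chr19:49375469-49379316, plus strand) encodes GADD34, which guides a phosphatase back to eIF2 and so ends the response. Its 2 peaks were both of Nrf2 with iAs and both lay inside the gene, 207 bp at 2.25 kb in the coding part of exon 2 and 679 bp at 2.88 kb in intron 2. No Nrf2 control peak lay nearer than 91.7 kb, where a peak of 1393 bp stood 1174 bp from the start of FTL, the ferritin light chain gene. No HIF1α peak reached the window. The nearest was 188 bp at -59.9 kb with iAs, near BCAT2, and 247 kb away in control cells.

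Read against all genes, the number of members near a peak was near the general level in each library. Within 50 kb, Nrf2 in control cells had a peak at 2 members, TRIB3 and CEBPB, against 20.0% of all protein-coding genes. Nrf2 with iAs had a peak at 4 members, against 35.0% of genes. HIF1α in control cells had a peak at 5 members, against 45.5%, and HIF1α with iAs at 7 members, against 68.6%. The members are short, with a median gene body of 5150 bp against 27220 bp for all protein-coding genes, so their windows were also shorter. With peaks within 10 kb only, Nrf2 with iAs still reached the same count of 4 members, against 19.6% of genes.

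The start sites gave the wider gap. The 7 of 9 members with HIF1α at the start under iAs stood against 8580 of 20162 genes, and the 1 member of control cells against 3362 genes. The Nrf2 iAs peak of CEBPB at 1.10 kb lay just outside the distance of 1 kb. The HIF1α iAs list was 2.13 times as long as the control list, and an effect of iAs on that length cannot be told apart from one of read depth or of peak calling. When the same number of widest peaks was taken from each of the 4 lists, the members with HIF1α at the start were 3 with iAs, ATF4, TRIB3 and CHAC1, against 15.2% of all genes in that subset. In control cells there were 0, against 10.4% of genes. The other 4 of the 7 members thus had narrower start-site peaks. No list of 9 genes was tested against chance.

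**Figure D2:**
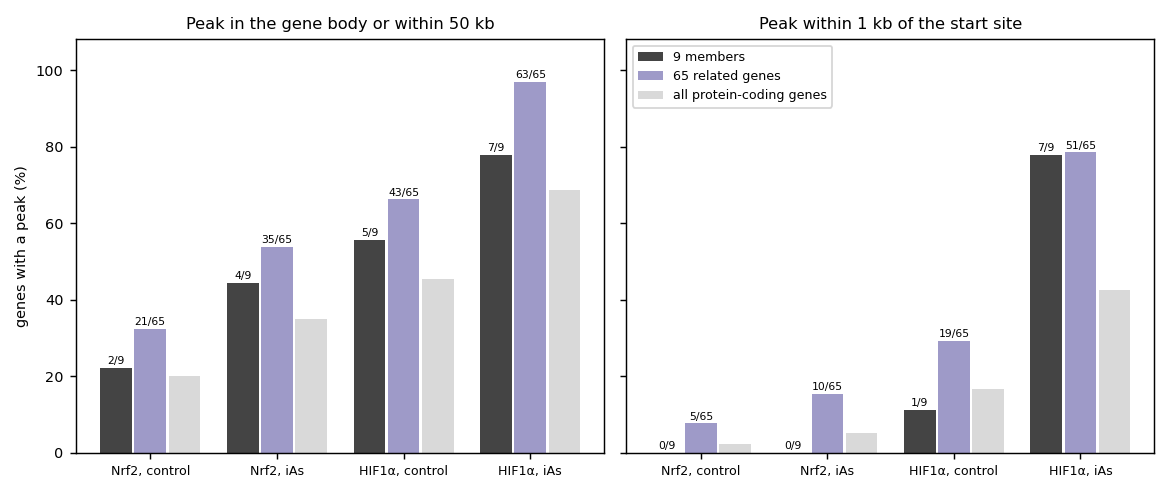
Share of genes with a peak (%), for a peak in the gene body or within 50 kb (left) and within 1 kb of the start site (right), in each of the 4 libraries. Dark bars are the 9 members, purple bars the 65 related genes and grey bars all protein-coding genes, with counts above the bars. At the start site HIF1α with iAs reached 7 of 9 members and 42.6% of all genes. Nrf2 reached 0 of 9 in both conditions, against 2.32% of all genes in control cells and 5.17% with iAs.

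Most of the iAs peaks at the 9 loci had no control peak beneath them, as was so genome-wide. For Nrf2, 7 of 10 iAs peaks (70.0%) overlapped no control peak, against 62.0% of its whole iAs list. For HIF1α this was 31 of 37 (83.8%), against 75.2%. Members with at least 1 such peak numbered 4 for Nrf2, against 25.4% of genes, and 7 for HIF1α, against 59.6%. The number of peaks at the 9 loci was 3.33 times that of control cells for Nrf2, where the whole list was 2.42 times as long. For HIF1α it was 5.29 times, where the list was 2.13 times as long. With peaks under 500 bp apart merged, HIF1α had 25 peaks at the loci with iAs and 7 in control cells. With equal numbers of widest peaks it had 10 and 3. Of the 37 HIF1α iAs peaks, 26 were nearer to the start of another gene than to that of a member, and 11 were nearest to a member.

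Peaks found in both conditions could be compared by width. The 3 Nrf2 pairs, 2 at TRIB3 and 1 at CEBPB, were all wider with iAs, by 4.11, 2.14 and 1.07 times. Their median ratio was 2.14, against 1.67 over all 3039 Nrf2 pairs, of which 91.9% were wider with iAs. Of the 6 HIF1α pairs, 4 were wider with iAs, at NRSN2 (2.64 times), upstream of CEBPB (1.46), at EIF2AK3 (1.28) and at SOX12 (1.09). The pair in the ATF4 window, nearest to RPS19BP1, was of equal width (1.00). That in the CHAC1 window, nearest to VPS18, was narrower (0.638 times). At the start sites of ATF4 and CHAC1 no HIF1α iAs peak overlapped a control peak. The HIF1α median was 1.18, against 1.47 over 3254 pairs, of which 76.9% were wider. Width is not height, and the spread between cultures is unknown.

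**Figure D3:**
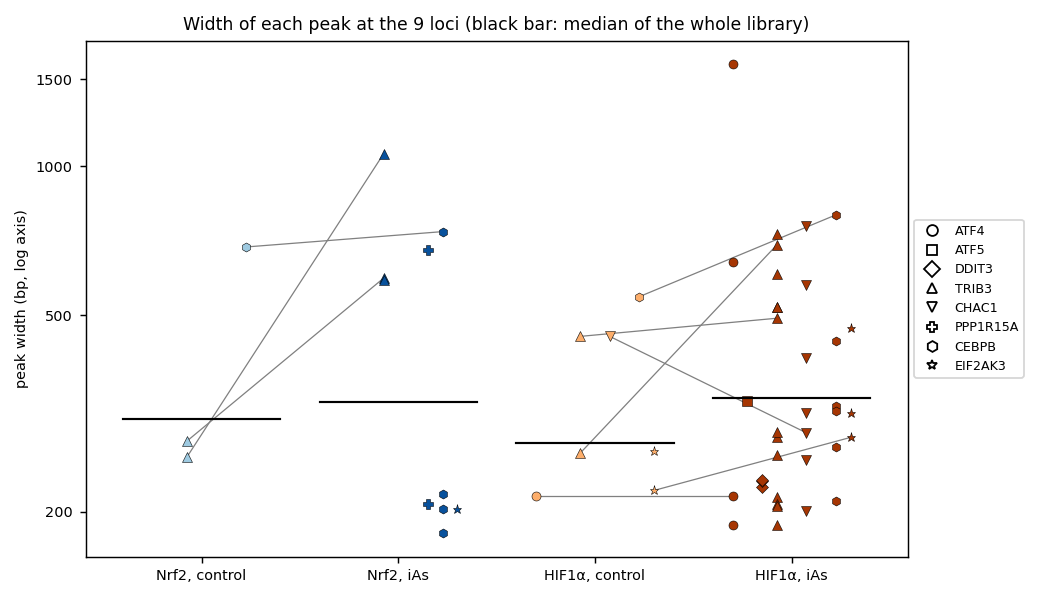
Width in bp (log axis) of each of the 57 peaks by library, with a marker shape for each gene, grey lines joining overlapping control and iAs peaks of a factor, and a black bar at the median of the whole library. The ATF4 start-site peak of 1610 bp stands above the others, and both TRIB3 lines of Nrf2 climb from below to above the library medians of 309 and 333 bp.

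Nrf2 and HIF1α met at 1 member. Of the 10 Nrf2 iAs peaks at the 9 loci, 2 (20.0%) overlapped a HIF1α iAs peak, both at CEBPB, against 14.7% of all 7743 Nrf2 iAs peaks. Overlapping iAs peaks of both factors within 50 kb were present at 12.7% of all genes. At TRIB3 the factors were side by side and apart, with Nrf2 upstream within the span of a longer transcript and HIF1α at the start site. At EIF2AK3 Nrf2 lay at -31.1 kb and HIF1α at the start.

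The presence of peaks in the 4 libraries gave 6 patterns among the 9 genes. TRIB3 and CEBPB had a peak in every library, as did 2598 protein-coding genes (12.9%). ATF4 and CHAC1 had HIF1α peaks within 50 kb in both conditions and no Nrf2 peak, a pattern of 4055 genes (20.1%). ATF5 and DDIT3 had HIF1α peaks with iAs only, as did 3723 genes (18.5%). None of these patterns was rare. EIF2AK3 had HIF1α in both conditions and Nrf2 with iAs, as did 1813 genes (8.99%), and ASNS shared its lack of peaks with 4907 genes (24.3%). The pattern of PPP1R15A, Nrf2 with iAs alone, was found at 397 genes (1.97%).

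The letters searched were counted in each peak, in all peaks of the library, and in windows of the same length 5 kb away. An ARE core was present in all 3 control Nrf2 peaks of the loci and in 5 of the 10 iAs peaks, those of TRIB3, the upstream region of CEBPB and exon 2 of PPP1R15A. In the complete lists ARE cores were in 51.3% of control and 44.2% of iAs peaks. The windows 5 kb away held them in 11.9% and 14% of cases. AP-1 letters were present in all 3 control peaks and 7 of the 10 iAs peaks, against 58.4% and 51.5% of all peaks and 6.62% and 8.08% of the windows away. The 3 Nrf2 iAs peaks with neither were the 3 narrow ones at and beyond CEBPB. Over whole peaks, the ARE count of the iAs peaks, 5 of 10, was near the share of its list, and the AP-1 count, 7 of 10, was above it. Within 100 bp of the peak centre the counts were 2 and 3 of 10, below the 31.6% and 38.3% of the list. The Nrf2 iAs peaks of the loci had a median width of 403 bp, against 333 bp for the list. The control counts rest on 3 peaks.

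HIF letters were present in 22 of the 37 HIF1α iAs peaks, against 71.6% of all peaks of that list and 41.2% of windows 5 kb away. In control cells it was 4 of 7, against 58.5% and 32.9%, and 3 of these 7 peaks, at CHAC1, CEBPB and EIF2AK3, held AP-1 letters, against 18.0% of that list. Among the start-site peaks, that of ATF4 held 11 HIF matches, the wider one of TRIB3 7, that of CHAC1 4, the iAs pair of EIF2AK3 2 and 0, and those of ATF5 and DDIT3 1 and 0. Of the 3 peaks at the CEBPB start, 1 held HIF letters, with 2 matches. HIF letters are short and frequent in GC-rich DNA, and the HIF1α iAs peaks of the loci had a median GC content of 70.7%, against 69.8% for the whole list and 53.0% for the Nrf2 iAs peaks of the loci. The part of GC content in these counts was not tested.

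C/EBP-ATF letters were present in 2 of the 37 HIF1α iAs peaks, at the starts of TRIB3 and CHAC1, where 1.53% of all peaks of that list and 6.23% of the windows away held them. Among Nrf2 iAs peaks, 1 of 10 held them, at TRIB3, against 8.78% and 8.30%. In the promoters of 20140 genes, from 250 bases before to 50 after the start, the letters were present in 2.49%, and 2 members, ASNS and CHAC1, were among these. The TRIB3 matches lie past that window, in exon 1. HIF letters were in 56.4% of promoters and in those of 8 members, ARE cores in 14% and in those of 2 members, PPP1R15A and CEBPB, and AP-1 letters in 3.57% and in that of DDIT3. PPP1R15A thus had ARE letters at its promoter as well as under the Nrf2 peak in exon 2, although no Nrf2 peak lay within 1 kb of its start.

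Around the 9 genes, 65 further genes of the pathway were examined in 5 lists. Within 50 kb, Nrf2 in control cells had a peak at 21 of them (32.3%) and Nrf2 with iAs at 35 (53.8%). Over all protein-coding genes these shares were 20.0% and 35.0%. HIF1α had a peak at 43 (66.2%) in control cells and at 63 (96.9%) with iAs, against 45.5% and 68.6% of all genes. The exceptions to the last were SLC7A11 and CTH. Within 1 kb of the start the counts were 5 (7.69%) and 10 (15.4%) for Nrf2 and 19 (29.2%) and 51 (78.5%) for HIF1α, control before iAs. In the same order, the shares of all genes were 2.32% and 5.17% for Nrf2 and 16.7% and 42.6% for HIF1α. The share of HIF1α iAs start sites was thus close for the 65 genes and for the 9. Nrf2 with iAs was at the start of 10 of the 65 genes and 0 of the 9, and 9 genes are too few to set the lists apart by this count.

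**Figure D4:**
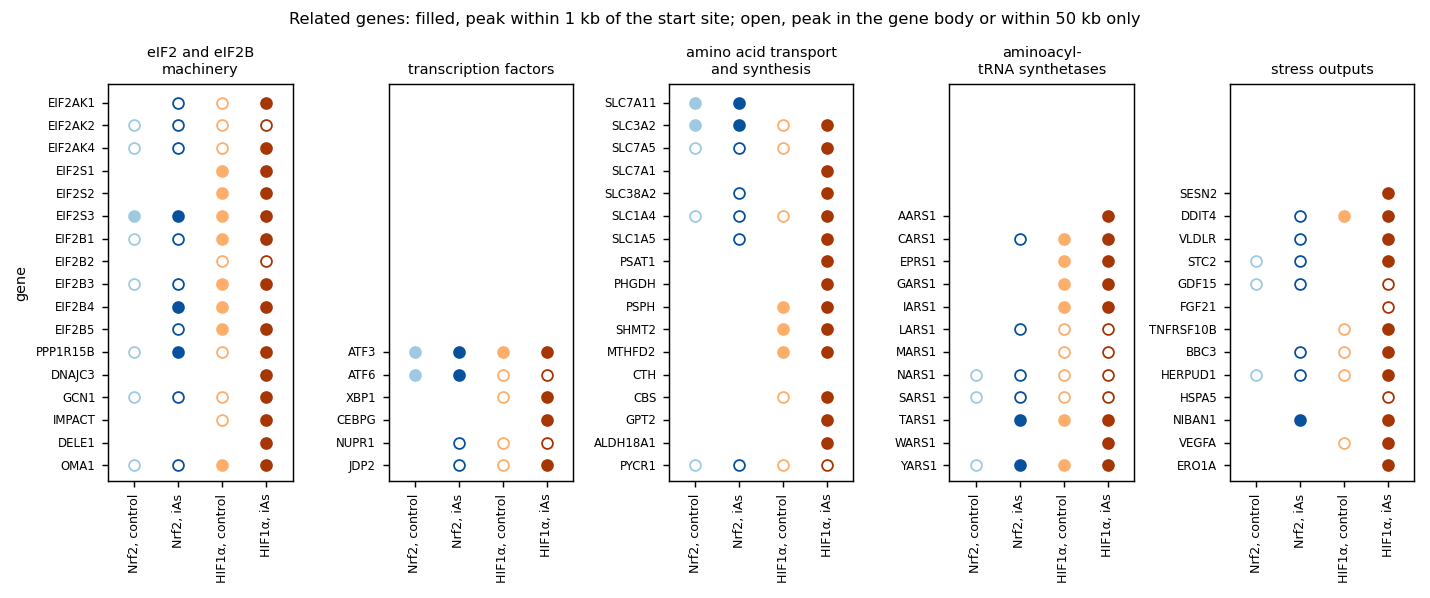
Presence of peaks at 65 related genes (rows) in the 4 libraries (columns) for 5 lists. Filled circles are genes with a peak within 1 kb of the start site, open circles genes with a peak in the gene body or within 50 kb and none at the start, and no circle means no peak. The HIF1α iAs column is filled at 51 of 65 genes, where 42.6% of all protein-coding genes had such a peak. SLC7A11 has filled Nrf2 circles and none of HIF1α.

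Among 17 genes of eIF2 phosphorylation and of the eIF2 and eIF2B factors, HIF1α with iAs was at the start of 15 and in control cells of 8, where the shares over all genes were 42.6% and 16.7%. The same shares stand behind the HIF1α start-site counts of the other 4 lists. The widest iAs start-site peaks were at GCN1 (771 bp), a partner of the kinase GCN2, at EIF2B4 (731 bp), a subunit of the exchange factor eIF2B, and at EIF2S2 (709 bp), the beta subunit of eIF2. Nrf2 with iAs lay within 10 kb of 5, against 19.6% of all genes, namely GCN1, EIF2S3, PPP1R15B, EIF2AK4 and EIF2B4. That share also stands behind the Nrf2 counts within 10 kb of the lists below, which were 3 of 6, 5 of 17, 3 of 12 and 4 of 13 genes. None of these counts was tested. A peak within 10 kb could lie outside the gene and nearer to another start, which was not looked up for the related genes. The widest Nrf2 iAs peak within 10 kb of GCN1 was 1803 bp, centred 75.7 kb from the start, and overlapped a control peak of 363 bp. At PPP1R15B, the constitutive counterpart of PPP1R15A, a peak of 647 bp at -5.65 kb overlapped a control peak of 422 bp. At EIF2B4 the peak was 224 bp at -0.142 kb, at EIF2AK4 271 bp at 8.63 kb, both without control peak, and at EIF2S3 770 bp at 29.8 kb over 312 bp in control cells.

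Among 6 transcription factors, Nrf2 with iAs lay within 10 kb of ATF3, ATF6 and JDP2. ATF3, a stress-induced repressor, had 4 such peaks, the widest 686 bp at -12.7 kb over 270 bp in control cells. Of these, 2 lay within 1 kb of the ATF3 start, the wider 591 bp, where control cells had 1 of 222 bp. ATF6, a sensor of the unfolded protein response, had 1 of 407 bp at 0.055 kb over 219 bp. The JDP2 peak was 231 bp at 25.4 kb. HIF1α with iAs was widest at the start of ATF3 (1315 bp), then XBP1 (785 bp) and CEBPG (508 bp).

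Among 17 genes of amino acid transport and synthesis, the 2 with Nrf2 at the start in both conditions were the subunits of the cystine transporter. At SLC7A11 a control peak of 332 bp was 1190 bp wide under iAs, at 0.165 kb, and at SLC3A2 it was 193 and 715 bp, at 0.637 kb. Further Nrf2 iAs peaks within 10 kb were 1100 bp at 8.44 kb of SLC7A5 over 608 bp in control cells, 1130 bp at 10.5 kb of PYCR1 over 390 bp, and 420 bp at 2.03 kb of SLC1A5 with no control peak. Whether the PYCR1 peak lay inside that gene or nearer to another start was not looked up. HIF1α with iAs was at 14 of the 17 starts, widest at SLC1A4 (1177 bp), MTHFD2 (853 bp) and SLC7A1 (702 bp), and in control cells at 3. CTH, an enzyme of cysteine synthesis, had no peak in any library, like ASNS.

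Among 12 aminoacyl-tRNA synthetases, which charge tRNAs with amino acids, HIF1α was at 8 starts with iAs and 6 in control cells. The widest were at GARS1 (532 bp), IARS1 (484 bp) and EPRS1 (442 bp), each of which also had a control peak at the start, of 256, 463 and 201 bp. Nrf2 iAs peaks within 10 kb were at YARS1 (359 bp), TARS1 (293 bp) and CARS1 (271 bp), none over a control peak. Among 13 outputs of the response, HIF1α with iAs was at 10 starts against 1 in control cells, widest at VEGFA (1264 bp), VLDLR (1190 bp) and STC2 (1039 bp). Nrf2 iAs peaks within 10 kb were at NIBAN1 (319 bp), GDF15 (280 bp), STC2 (235 bp) and BBC3 (181 bp), of which that of GDF15 overlapped a control peak, of 293 bp.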

How the data were processed

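ChIP-seq of BEAS-2B cells was read from the deposited peak lists of 4 libraries on hg19, in which the authors gave only start and end positions. The submitters' processing notes name BWA and MACS2 2.1.0. The authors down-sampled tags within a group and called peaks with MACS or SICER. Which caller made each list is not given in the sources used here, nor is the depth behind it. Antibody sources differ between the labels (Santa Cruz for Nrf2, Abcam for HIF1α) and the methods (Active Motif). The input library has no peak list used here, and the authors' merged list of 21088 regions, each covered by a library peak, was not used for comparisons.

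Starts were made 1-based. Genes and canonical start sites came from GENCODE release 44 on GRCh37, and none of the 29781 peaks lay beyond a chromosome end. Overlap required 1 bp. Sequences and promoters were read from GRCh37, the same build as hg19. Analyses were run in Python 3.11.15 with NumPy 2.4.6 and Matplotlib 3.10.9. Overlap queries, distances from start sites and motif matching were run on simulated data with known answers, and the other counting steps were not. The members, the 5 related lists and the motifs were chosen with earlier results of these data known, and no test was made because each antibody and condition had 1 library. All 9 members were named. Of the related genes, those with a Nrf2 iAs peak within 10 kb and, per list, the 3 with the widest HIF1α iAs peak within 1 kb of the start were named. Alternatives were other distances, overlap rules, peak subsets, start sites and motif windows.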

Additional observations from a re-analysis of the deposited data

How the results depend on the processing

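The counts of members and peaks near them moved mostly with distance and with the length of the lists. Of 91 alternatives to 27 counts, 43 stayed within 1.5 times the reported count and 48 did not. For each, the values follow in the order Nrf2 control, Nrf2 iAs, HIF1α control and HIF1α iAs where all moved. Within 10 kb, members with a peak were 1 for Nrf2 control and 2 for HIF1α control, and peaks were 6 for Nrf2 iAs, 3 for HIF1α control and 14 for HIF1α iAs. Within 100 kb, members were 4 for Nrf2 control and 8 for HIF1α control, and peaks were 6, 18, 17 and 57. With peaks nearest to the member's own start, members were 1 for Nrf2 control and 1 for HIF1α control, and HIF1α peaks were 2 in control cells and 11 with iAs. In the wider 50% of each list, members were 1 for Nrf2 control and 3 for HIF1α control, and peaks were 1, 5, 3 and 14. With equal numbers of widest peaks, members were 3 for HIF1α control and 4 for HIF1α iAs, peaks were 5 for Nrf2 iAs, 3 for HIF1α control and 10 for HIF1α iAs, and start-site counts of HIF1α were 0 and 3. Within 3 kb of the start, Nrf2 iAs had 2 members.

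Shared Nrf2 peaks were 1 with a reciprocal overlap of 50%. Shared HIF1α peaks were 11 with a gap of up to 1 kb, 2 within 10 kb and 1 with equal numbers. Overlaps of Nrf2 with HIF1α were 1 with a reciprocal overlap of 50%, with centres within 200 bp, within 10 kb and with equal numbers. Related genes within 10 kb were 10 for Nrf2 control, 20 for Nrf2 iAs and 25 for HIF1α control, and with equal numbers 20 for Nrf2 iAs and 33 for HIF1α iAs. Within 100 bp of the centre, ARE cores were in 2 Nrf2 and 3 HIF1α iAs peaks, AP-1 letters in 3 and 0, and C/EBP-ATF letters in 0 and 0. The cause of these moves was not tested beyond what each alternative leaves out or adds.

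No paired analysis was possible because each antibody and condition had 1 library and the labels carry no replicate numbers. For the same reason leaving out 1 library was not run. Depth behind the peaks is unknown, and a missing peak is not evidence of absent binding.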
